A study of Canis lupus familiaris with 2 samples.

Results

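Neural miRNAs were measured in the serum of a dog model of Duchenne muscular dystrophy and of normal dogs. They were taken from the chip by name, as every dog spot numbered miR-9, miR-124, miR-128, miR-137, miR-138, miR-153, miR-218 or miR-219, whatever its letter or arm. This gave 10 of the 291 dog miRNAs of the chip, each with 1 spot. The normal group was a pool of serum from 3 normal male dogs and the dystrophic group a pool of serum from 3 affected male dogs (CXMD_J, canine X-linked muscular dystrophy), both at 2 months of age and from the same colony. Each pool was hybridized to 1 array in 1 color (Cy5), so that no replicate error exists, no test between the groups was possible, and a difference between the pools and a difference between the arrays cannot be told apart.

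miRNAs are short RNAs that lower the output of messenger RNAs they pair with, and a few families are made mainly in the nervous system. miR-124 is the abundant miRNA of neurons, miR-9 acts in neural progenitors, miR-137 and miR-138 act in maturing neurons and at synapses, miR-153 is enriched in brain, miR-218 is enriched in motor neurons and is also found outside them, and miR-219 is known from oligodendrocytes, the myelin-forming cells. miR-128 is abundant in brain and is also expressed in skeletal muscle, the tissue that degenerates in this disease, and it was therefore set against the other 9. In the RefSeq dog annotation (UU_Cfam_GSD_1.0) all 10 matched a miRNA gene. miR-128 has 2 genes, which lie inside R3HDM1 and ARPP21, the 2 genes of miR-218 lie inside SLIT2 and SLIT3, and the gene of miR-153 lies inside PTPRN2. miR-9 has 3 genes, and miR-124 has 2. Serum holds miRNAs released from many tissues, and the array does not show which tissue a molecule came from.

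A spot was called detected when its intensity exceeded the trimmed blank spots of its array by more than 2 SD, a limit of 125.9 scanner units on the normal array and 124.04 on the dystrophic array. The net signal is the intensity minus the mean of these blank spots. The normalized signal is the net signal after each array was brought to a median of 25 over what was detected on it. The limit lay low on both arrays, since 9.38% of the blank spots passed it on the normal array and 8.59% passed it on the dystrophic array. Of the positions that carry no probe (No Probe spots), 26.5% and 23.8% passed it. Of the 32 negative-control spots, 21 passed it on the normal array and 27 on the dystrophic array, with median readings of 131.4 and 133.9. A detected call thus does not separate a spot from the negative controls. As markers of serum content, the red-cell miRNAs miR-451 and miR-16 were bright in normal serum, with normalized signals of 1276 and 181.6, and lower in dystrophic serum, with 250.04 and 62.7. Not all red-cell miRNAs went this way. miR-185 passed the limit only in dystrophic serum (1.99 in normal and 11.4 in dystrophic serum), and miR-144 passed it in neither (0.902 and 5.03). The liver miRNA miR-122 had normalized signals of 8.63 in normal and 8.14 in dystrophic serum. Its spots lay only 0.430 and 1.61 units above the limit, and 21 and 26 of the 32 negative-control spots were at least as bright. What part red-cell content has in the values below was not tested.

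Of the neural miRNAs, miR-128 stood out in dystrophic serum, and the other 9 read at most 147.9 on either array, where negative-control spots reached 163 and 152. In normal serum 4 of the 10 were detected, compared with 54.6% of all dog miRNAs, and the brightest of them, miR-138a, ranked only 115 among the 291. In dystrophic serum 6 of the 10 were detected, compared with 64.6% of all dog miRNAs. miR-128, miR-138a, miR-124 and miR-138b were detected in both, where the share of all dog miRNAs was 48.8%. miR-153 and miR-137 were detected in dystrophic serum alone (15.8% of all dog miRNAs), and miR-219-3p, miR-9, miR-218 and miR-219-5p in neither (29.6%). The net signal before scaling was higher on the dystrophic array for 9 of the 10, against 75.6% of all dog miRNAs, so that the direction is mostly that of the whole array.

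**Figure D1:**
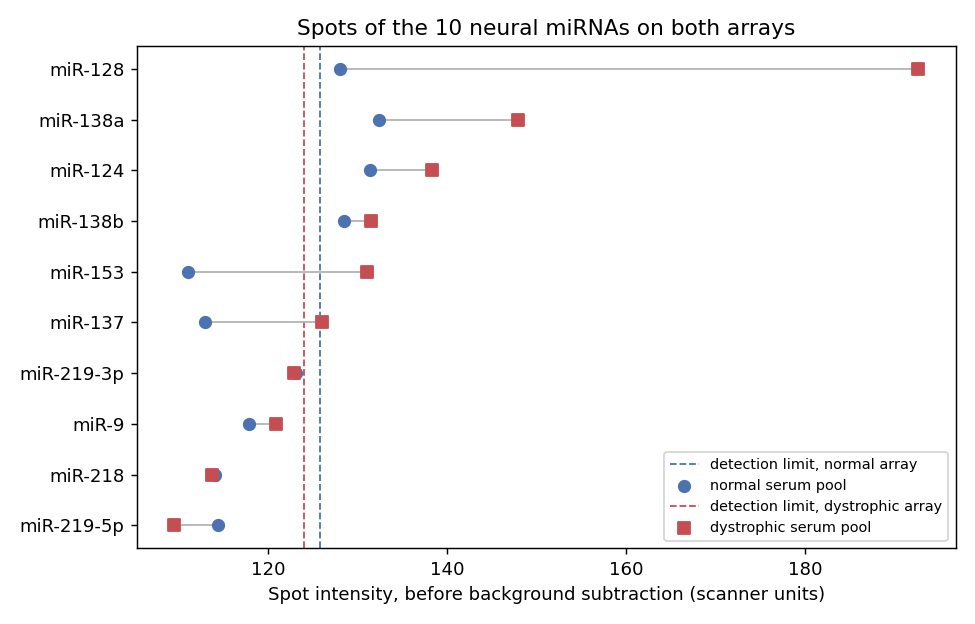
Spot intensity of the 10 neural miRNAs before background subtraction (scanner units), 1 spot on each array, circles for the normal and squares for the dystrophic serum pool, with dashed lines at the detection limits of 125.9 and 124.04. The spot of miR-128 moved from 128.03 to 193, whereas the other 9 read between 110 and 148 on the dystrophic array.

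The spot of miR-128 read 128.03 on the normal array and 193 on the dystrophic array. In normalized signal these were 10.4 for normal and 63.5 for dystrophic serum. The first value lay at the edge of detection, 2.15 units above the limit, and the second was well clear of it, by 68.6 units. On the normal array 94 of the 1408 blank spots (6.68%) and 21 of the 32 negative-control spots were at least as bright as miR-128. On the dystrophic array 1 blank spot, 1 of the 181 No Probe spots and none of the negative-control spots were. Among the dog miRNAs it moved from rank 145 to rank 51.

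The dystrophic over normal ratio of miR-128 was 6.09 (log2 ratio 2.61), with a 95% noise interval from 2.54 upward and no upper limit. The interval was computed from the spread of the blank spots and from the spread between spots of control probes. Variation between dogs, extractions or hybridizations is not in it. Nor is the spread of the negative-control spots, which read from 112.2 to 163.4 on the normal array (median 131.4). Since the normal signal is close to background, the interval gives only a lower limit. That limit holds for subtraction of the mean blank level alone: the ratio was 1.46 without subtraction and 0.811 with normexp correction, both below it. A ratio was computed for the 142 dog miRNAs detected on both arrays. Among them miR-128 had the fifth highest, after miR-133c, miR-133a, miR-133b and miR-206, but it ranked 10 without background subtraction and 130 with normexp correction of the local background. Of the 4 neural miRNAs with a ratio, miR-128 was the only one above 2, a limit passed by 13.4% of these 142. None of the 4 was at 0.5 or less, where 5.63% of the 142 lay. The dog miRNAs with signals most like those of miR-128, by distance of both log2 normalized signals over the 2 arrays, were miR-105a (9.37 in normal and 42.4 in dystrophic serum), miR-103 (12.4 and 41.4) and miR-409 (17.7 and 44.7).

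**Figure D2:**
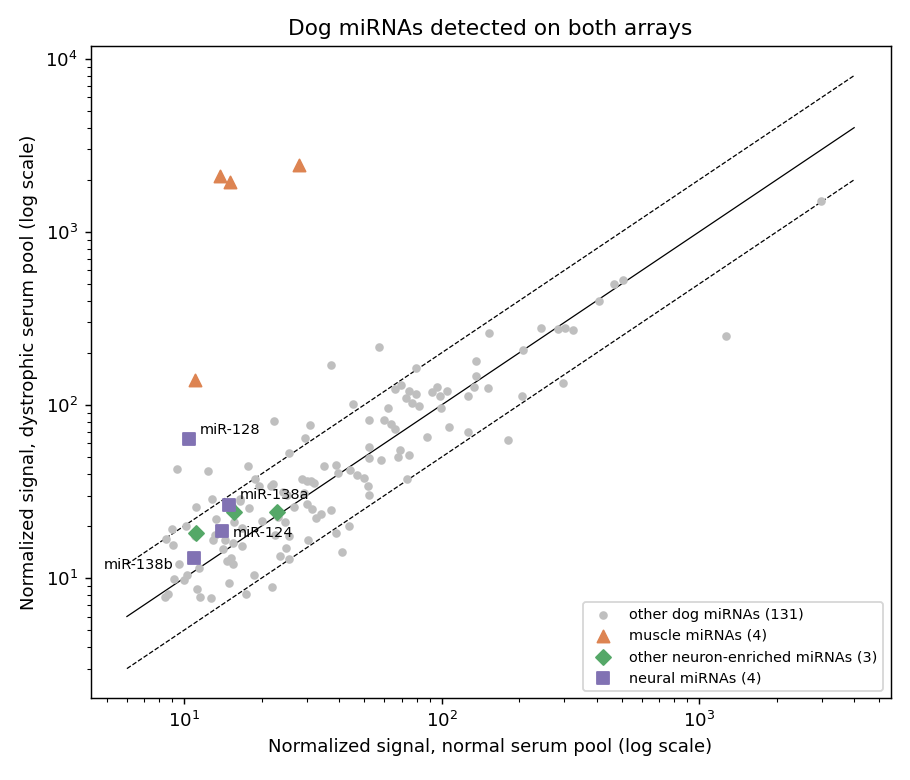
Normalized signal of the 142 dog miRNAs detected on both arrays, normal serum pool against dystrophic serum pool on log scales, with lines at ratios of 1, 2 and 0.5. miR-128, at 10.4 and 63.5, lies above the line of 2 and below miR-206, while miR-138a, miR-124 and miR-138b lie between the lines of 1 and 2.

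The neighborhood of the miR-128 spot was examined, because the call rests on 1 spot. Its local background, the brightness around the spot, was 88.2 on the normal array and 199.2 on the dystrophic array. On the dystrophic array the surroundings were thus brighter than the spot itself, by 6.62 units. Of the 291 dog spots of that array, 6 had a local background above the spot. Of these 6, 3 are among the 19 with a ratio above 2, namely miR-128, miR-133a and miR-133b. Those 19 are 13.4% of the 142 dog miRNAs with a ratio. Local background rose with spot intensity across the dog spots of an array (Pearson r of log2 values 0.914 on the normal array and 0.957 on the dystrophic array, n = 291 spots that share an array). For the 10 dog spots nearest to miR-128 in intensity on the dystrophic array, which read from 179.5 to 206.1, it ran from 116.8 to 176.02 with a median of 138.1. The value around miR-128 was above all of them.

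The ratio of miR-128 therefore depended on which background was subtracted. With local background subtraction no ratio was obtained, and with normexp correction, which starts from the local background and adds an offset of 50, the ratio was 0.811, in the opposite direction. With the blank level of its own block of spots, 1 of 32 blocks, it was 5.37. The blank spots of that block had a median of 116.8 on the normal array and 115.8 on the dystrophic array. Around miR-128 lay 5 spots. The QC-Probe spots among them read 157.1 and 119.4 on the normal array and 142.4 and 120.1 on the dystrophic array, so that the first was dimmer there and the second nearly the same. The 3 dog miRNA spots among them were all brighter on the dystrophic array: miR-206 read 128.6 and 284, miR-330 read 178 and 233, and miR-103 read 129.96 and 165.8. Of all dog miRNAs, 75.6% had a higher net signal there before scaling. miR-206 and miR-103 were above 2-fold as well. Of the 19 dog miRNAs above 2-fold, 5 had an adjacent dog spot above 2-fold. The same share for dog spots in general was not computed, so this count has no base to be read against. The part of position on the array in the value of miR-128 was not tested.

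**Figure D3:**
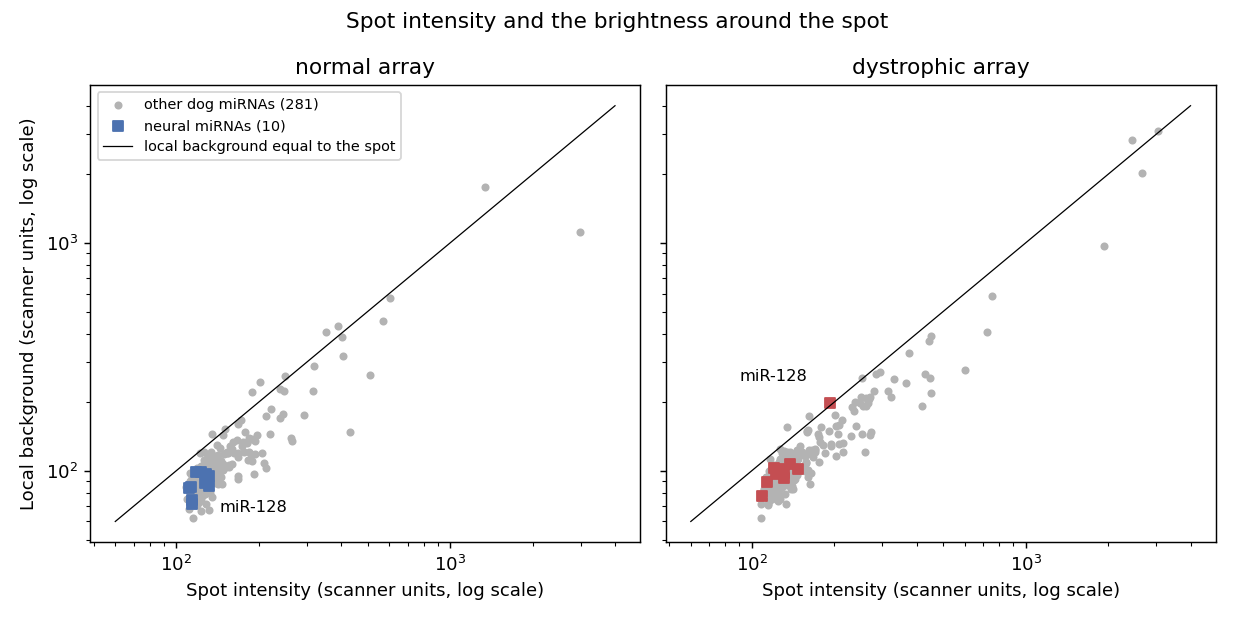
Local background against spot intensity of the 291 dog miRNA spots (scanner units, log scales), for the normal array on the left and the dystrophic array on the right, with the 10 neural miRNAs as squares and a line where both are equal. On the dystrophic array miR-128, at 193 with a local background of 199.2, lies just above the line, and the other 9 lie below it.

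The miR-138 pair, from 2 genes of the same family, was detected in both sera. miR-138a read 132.4 and 147.9, which gave normalized signals of 14.9 and 26.6. Its ratio was 1.78, with noise limits of 0.761 and 21.9 on either side of 1. miR-138b read 128.5 and 131.6, with normalized signals of 10.9 and 13.03 and a ratio of 1.19, and its noise limit was 0.191 below and none above. miR-138a was matched or exceeded by 0.426% of the blank spots on the dystrophic array, and miR-138b by 3.05%. The spots of the pair may share labelled RNA, which was not tested, and the sequences of the 2 were not compared here.

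miR-124 read 131 and 138.4. The normalized signals were 13.99 and 18.7, and the ratio of 1.33 had noise limits of 0.448 and 64.3. On the normal array 22 and on the dystrophic array 14 of the 181 No Probe spots were at least as bright. The signal of this neuronal miRNA thus lay within the range of the No Probe spots on both arrays, and a difference between the sera was not detectable at this level.

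miR-153 and miR-137 passed the limit only in dystrophic serum. miR-153 read 111 on the normal array and 131 on the dystrophic array. Its normalized signal in dystrophic serum was 12.6, which is 1.52 times the lowest detected signal of normal serum. miR-137 read 113 and 126, with 8.47 in dystrophic serum, 1.02 times that lowest signal. Spot noise is not in these 2 values. Both miRNAs were dim in dystrophic serum: 22 and 32 of the 181 No Probe spots were at least as bright. In normal serum both were among the dimmest spots, matched or exceeded by 95.1% and 88.3% of the blank spots. The normalized signals, kept below 0 where the spot was under the blank level, were higher in dystrophic serum by 19.8 for miR-153 and by 13.7 for miR-137, each with a noise half-width of 17.2. miR-128 and miR-153 were the 2 neural miRNAs whose difference passed its half-width, as it did for 14.1% of all dog miRNAs in this direction. The difference of miR-153 rests on a normal spot 6.90 units under the mean blank level. No neural miRNA passed it downward, as 4.81% of all dog miRNAs did.

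The remaining neural miRNAs were not detected in either serum. miR-9 read 117.9 and 120.9, where 46.7% and 15.9% of the blank spots read as high or higher. miR-218 read 114.1 and 113.7, and here these shares were 80.9% and 63.6%. The arms of the miR-219 hairpin read 123.2 and 122.9 for miR-219-3p and 114.5 and 109.6 for miR-219-5p. miR-219-5p was the dimmest neural miRNA of the dystrophic array, at rank 289 of 291. For these 4, the data give only an upper bound at the detection limit, and a low level in serum was not detectable.

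**Figure D4:**
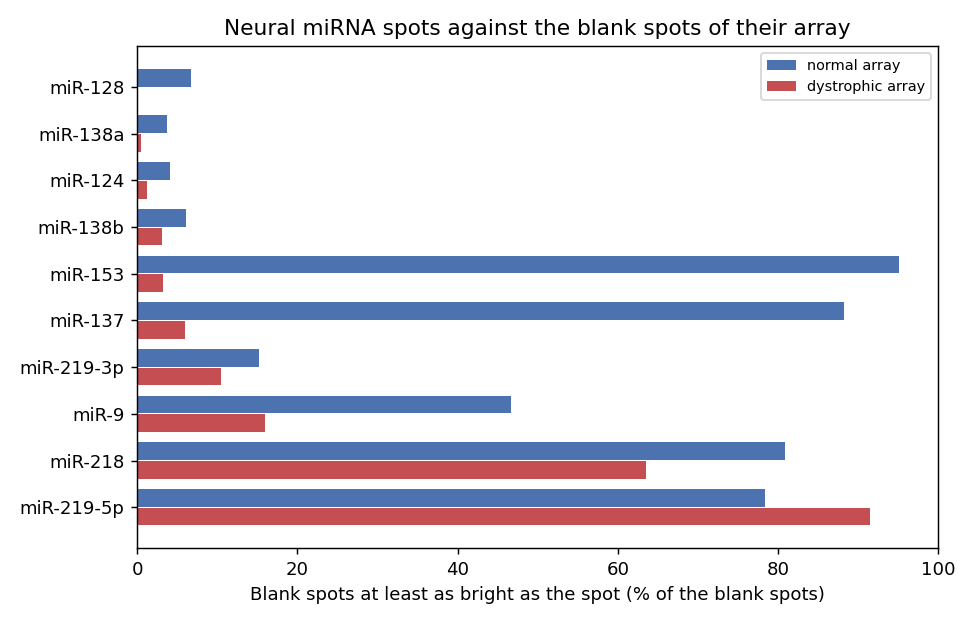
Share of the 1408 blank spots that were at least as bright as each neural miRNA (percent), for the normal and the dystrophic array. For miR-128 the share fell to 0.0710% on the dystrophic array from 6.68% on the normal array, and on the dystrophic array it was below 5% for miR-138a, miR-124, miR-138b and miR-153 and higher for the other 5.

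Set against the other 9, miR-128 was the brightest in dystrophic serum and not in normal serum. The 3 others with a ratio had ratios from 1.19 to 1.78 (median 1.33), compared with 6.09 for miR-128 and a median of 1.09 for the 142 dog miRNAs with a ratio. The median over the 4 was 1.56. The noise interval of miR-128 began above the ratios of all 3, while those of the 3 had upper limits above 6.09 or none, so that with 1 spot each the difference between miR-128 and any of them was not settled by the intervals. In normal serum miR-128 was dimmer than miR-138a, miR-124 and miR-138b, by at most 4.35 units, less than the spread of single blank spots (6.66 units, as an SD).

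Other neuron-enriched miRNAs of the chip, miR-7, miR-129, miR-132, miR-134, miR-135 and miR-212, gave 8 spots. Of these 3 were detected in normal and 6 in dystrophic serum, compared with 54.6% and 64.6% of all dog miRNAs. Only 3 of the 8 had a ratio, and none of these was above 2-fold, compared with 13.4% of the dog miRNAs with a ratio. Another 3, miR-135a-5p, miR-212 and miR-132, were detected in dystrophic serum alone, as were 15.8% of all dog miRNAs. The normalized signal of miR-135a-5p was higher in dystrophic serum by 17.6, just above its noise half-width of 17.3. miR-129 had normalized signals of 22.9 and 24.1, miR-134 of 15.7 and 24.04, and miR-135a-3p of 11.1 and 18.3, with ratios of 1.05, 1.54 and 1.65 and noise intervals that all include 1. Like the strictly neural miRNAs, they gave no spot near the level of miR-128 in dystrophic serum, and the brightest of them read 144.9.

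The muscle miRNAs, miR-1, miR-133, miR-206, miR-208 and miR-499, gave 8 spots. Of these 4 had a ratio, compared with 48.8% of all dog miRNAs. All 4 were above 2-fold, compared with 13.4% of the dog miRNAs with a ratio. Their normal spots lay within the range of the negative-control spots. miR-206, the nearest to miR-128 in ratio, had normalized signals of 11.05 and 139.3, and its ratio was 12.6, with a noise interval from 5.52 upward and no upper limit. Its normal spot lay 2.75 units above the limit, and 21 of the 32 negative-control spots were at least as bright. The ratio was 128.4 for miR-133a (noise limits 65.99 and 1443), 152.4 for miR-133c (75.04 and 33256) and 87.1 for miR-133b (56.4 and 177.5). These ratios too rest on subtraction of the blank level. On the dystrophic array the spot minus its local background was -387.3 for miR-133a and -37.9 for miR-133b. From the normal to the dystrophic array it fell from 37.7 to 18.5 for miR-206 and rose from 14.4 to 632.3 for miR-133c. miR-1 passed the limit only in dystrophic serum (15.8% of all dog miRNAs), with a normalized signal of 20.6. miR-499 was detected in normal serum alone (17 of the 291 dog miRNAs) and miR-208a and miR-208b in neither (29.6%).

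**Figure D5:**
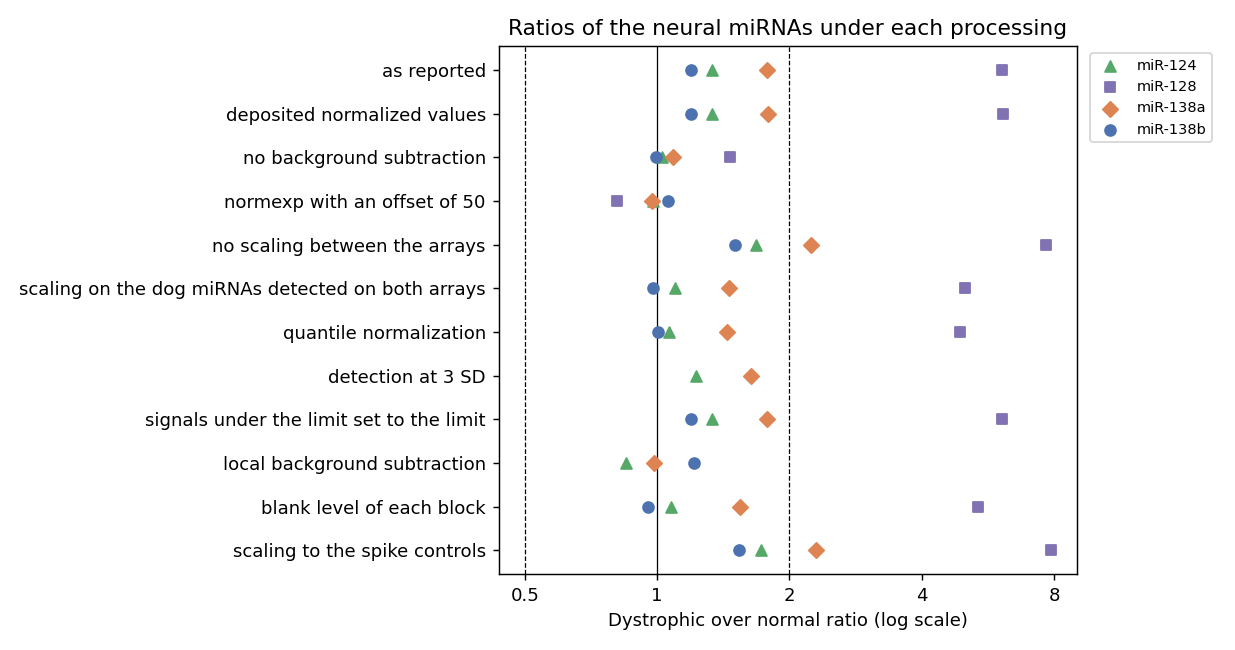
Dystrophic over normal ratio of the 4 neural miRNAs detected on both arrays (log scale) under the reported processing and each alternative that gave a ratio, with lines at 0.5, 1 and 2. The ratio of miR-128 stays between 4.88 and 7.86 wherever the blank level is subtracted and is 1.46 without background subtraction and 0.811 with normexp.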

How the data were processed

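Dog serum miRNAs were labelled with Cy5 and hybridized to 3D-Gene chips, 1 array for each pool of 3 dogs. The authors deposited, per the file headers, the median intensity of each of the 3200 spots and of its surroundings without normalization, and a table of normalized signal values, which match the values computed here within the rounding of 1 decimal. Settings of the 3D-Gene Extraction software are not given in the sources used here.

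The mean of the 1408 blank spots, trimmed by 5% at each end (rounded up), was subtracted, and each array was multiplied by a factor that set the median of its detected dog miRNAs to 25. Noise intervals (95%) of a ratio follow Fieller's formula, from the width of the central 95% of all blank spots, expressed as an SD (6.66 and 6.47 units) and a pooled coefficient of variation of 6.67% between the 8 spots of 10 bright control probes. The noise half-width of a difference uses the same errors and was added after the data were seen. Signals near background are limited by this spread, and the number of arrays limits the precision. The computation of ratios and their intervals was tested on simulated data, without scaling and with the same noise that the formula assumes. Whether the intervals held the true ratio was scored only for simulated net signals of at least 25. Intervals of spots near background were thus not tested.

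The miRNAs, lists and alternatives were chosen with earlier results of these data known. The text names every neural miRNA, the members of the other lists with a ratio, and the 3 miRNAs nearest to miR-128. Others are named where a count of 5 or fewer, or the position beside miR-128, called for it, after their values were seen. The red-cell miRNAs miR-144 and miR-185 were also added after their values were seen. Of the alternatives, 10 were set before the files were read and 3 after. Computations used limma 3.58.1 in R 4.3.3, and numpy 2.4.6, pandas 2.3.3 and matplotlib 3.10.9 in Python 3.11.15.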

Additional observations from a re-analysis of the deposited data

How the results depend on the processing

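Of the alternatives, local background subtraction, the blank level of each block and scaling to the spike controls were chosen after seeing the data. The deposited values gave the reported counts. The number of neural miRNAs above 2-fold, 1 as reported, was 0 without background subtraction and with normexp, detection at 3 SD or local background. It was 2 without scaling and 2 with the spike controls, where miR-138a reached 2.24 and 2.29. The share of all dog miRNAs with a ratio that was above 2-fold moved too, from 13.4% to 4.23% without subtraction, 2.82% with normexp, 10.2% at 3 SD, 12.4% with local background, 23.9% without scaling and 27.5% with the spike controls. The ratio of miR-128 was 1.46 without subtraction, which leaves the blank level in both signals. It reversed to 0.811 with normexp on the local background. The other 7 alternatives with a ratio kept it inside its noise interval, a weak check, as this has no upper limit. The number detected in normal serum fell from 4 to 2 at 3 SD and to 0 with untrimmed blank spots, whose SD is larger. The number detected in both fell to 2 and 0, and a minimum signal of 25 on both arrays also left 0. Over all dog miRNAs, the number detected on both arrays fell too, from 142 to 118, 99 and 71 under these 3 settings. They gave no ratio of miR-128, as its normal signal was too dim. The median ratio of the neural miRNAs ran from 0.977 to 2.01, on both sides of 1. The scalings moved the median log2 ratio of all dog miRNAs. The shift was 0.33 without scaling, -0.28 with the miRNAs detected on both arrays, -0.39 with quantile normalization and 0.37 with the spike controls. The ratio of miR-128 was 7.67, 5.01, 4.88 and 7.86 there. A constant factor cannot change its rank of 5. The rank was 5 with quantile normalization, 6 with the block blank level, 10 without subtraction and 130 with normexp. The ratios of miR-138a, miR-124 and miR-138b went below 1 under some alternatives, to 0.974, 0.847 and 0.953 at the lowest, inside their noise limits. Neither leaving out a replicate nor a paired analysis was possible, with 1 array for each pool.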
